A study of Mus musculus with 4 samples.

Results

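The receptors for type I interferon (Ifnar1, Ifnar2) and interferon gamma (Ifngr1, Ifngr2), their kinases (Jak1, Jak2, Tyk2) and 3 inhibitors of the same pathway (Socs1, Socs3, Ptpn2) are described here in mouse breast carcinoma cells. These 10 genes, taken by name from 55385 genes in the deposited expression table, were each matched to 1 Ensembl identifier. The RNA came from tumors of the Balb/c strain that grew from 4TO7, an established murine mammary carcinoma line. 2 libraries represent tumors resistant to immunotherapy with an antibody against PD-L1, and 2 represent control tumors. The treatment label of all 4 libraries is Untreated, while their treatment protocol names anti-PD-L1 in vivo, so the labels do not settle what the control animals were given. No age, sex or number of animals was given, and cells were freed from tumors by enzymatic digestion, with no sorting step named. The series calls the libraries of a group individual biological replicates without saying whether each came from its own animal. P-values therefore measure the spread between these libraries only.

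Type I interferons bind a receptor of the chains Ifnar1 and Ifnar2, to which the kinases Tyk2 and Jak1 are attached. Interferon gamma binds Ifngr1, which carries Jak1, together with Ifngr2, which carries Jak2. The activated kinases phosphorylate Stat proteins. Stat2 and Irf9 belong to the complex that switches on most type I interferon-stimulated genes. Socs1 and Socs3 are induced by Stat proteins and inhibit Jak kinases, and the phosphatase Ptpn2 removes phosphate from Jak and Stat proteins. In carcinoma cells this pathway controls antigen presentation genes.

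The libraries held 45666470 to 49592054 counted reads, and each of the 10 genes had 269 to 7615 reads per library. Values are normalized counts, that is, reads divided by a size factor per library. The replicates differed by more than counting error, as a chi-square divided by its degrees of freedom reached 20.5 between the resistant and 66.3 between the control libraries. Of 7 carcinoma epithelium markers, 2 keratins were abundant in all libraries: Krt18 had 27813 to 42630.2 and Krt8 had 12649 to 21116 normalized counts. The epithelial adhesion gene Epcam was low, at 87.6 and 114 in resistant and 341 and 246 in control libraries, and fell (log2 fold change -1.53, adjusted p = 0.011). The low markers Krt19 (2.97, adjusted p = 0.000812), Krt7 (1.90, adjusted p = 0.0139) and Cldn4 (1.95, adjusted p = 0.00782) rose, and neither Krt8, Krt18 nor Cdh1 passed. Ptprc, the pan-leukocyte antigen, had 0 to 2.15, and Cd3e, Adgre1 and the red cell globins had 0 to 1.07. Of the 14 leukocyte markers, Cd68, a lysosomal protein, and S100a8 were the 2 that reached the filter, and the summed list was 10387 to 10974 in resistant and 4038 to 6782 in control libraries, mostly Cd68. Cd68 rose (log2 fold change 1.18, adjusted p = 0.0356). S100a8 had 394 and 393 in resistant libraries, against 800 and 421 in control libraries, and did not pass (-0.56, adjusted p = 0.255).

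Some markers of other tissue cells differed between the groups, while others of the same lists did not pass. Of 6 fibroblast markers, Dcn fell, with 163 and 143 normalized counts in resistant libraries, against 763 and 483 in control libraries (log2 fold change -1.99, adjusted p = 0.00343). The collagen gene Col1a2 had 1.02 and 1.07 in resistant libraries, against 0.961 and 76.7 in control libraries (adjusted p = 0.311). Neither Col1a1 (log2 fold change 0.20) nor Pdgfra (0.12) passed. The 6 markers summed to 7139 and 8492 in resistant libraries, against 9282 and 6408 in control libraries. Most of each sum was Pdgfra, with 6940 and 8313 in resistant libraries, against 8504 and 5766 in control libraries. Of 6 pericyte and smooth muscle markers, Des (2.08, adjusted p = 0.00447) and Pdgfrb (1.00, adjusted p = 0.0252) rose. Acta2 (1.33), Rgs5 (-0.05) and Myh11 (-0.88) did not pass. The 6 markers summed to 868 and 1096 in resistant libraries, against 498 and 423 in control libraries. Endothelial markers summed to 45.9 and 55.8 in resistant libraries, against 87.4 and 49.4 in control libraries and neither of the 2 that reached the filter passed. The Epcam call ended without resistant replicate 1, those of Krt7 and Cldn4 without resistant replicate 2, and those of Cd68 and Pdgfrb without either resistant library. The part of the epithelial, stromal and leukocyte markers in the values of the 10 genes was not tested.

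Promoter sequence is shown for Socs1 and Socs3, the inhibitors whose transcription is fed back by Stat proteins, for the receptor chain Ifnar2, and for Stat2, a downstream partner that fell in resistant cells. Each run covers 250 bases before the RefSeq transcription start on build GRCm38.p6, read 5′ to 3′ on the strand of the gene. They lie at chr16:10785537-10785786 (minus strand, Socs1), chr11:117969367-117969616 (minus strand, Socs3), chr16:91372533-91372782 (plus strand, Ifnar2) and chr10:128270248-128270497 (plus strand, Stat2). The Socs3 window lies inside the GENCODE span of the gene (117966079 to 117970047), which starts further upstream than the RefSeq start used here. Capitals mark matches to TTCNNNGAA, the core of the Stat-binding element known as GAS, or to GAAANNGAAA on either strand, the core of the interferon-stimulated response element.
Socs1: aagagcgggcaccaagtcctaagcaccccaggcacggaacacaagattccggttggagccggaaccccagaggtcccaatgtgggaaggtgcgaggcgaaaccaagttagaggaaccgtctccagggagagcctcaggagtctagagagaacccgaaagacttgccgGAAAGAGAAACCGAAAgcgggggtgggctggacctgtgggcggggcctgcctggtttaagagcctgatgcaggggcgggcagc
Socs3: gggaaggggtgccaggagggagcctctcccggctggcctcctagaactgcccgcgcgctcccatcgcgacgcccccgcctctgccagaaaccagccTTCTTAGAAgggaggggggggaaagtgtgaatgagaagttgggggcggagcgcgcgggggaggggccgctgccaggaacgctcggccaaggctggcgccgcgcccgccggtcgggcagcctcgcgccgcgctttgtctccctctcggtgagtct
Ifnar2: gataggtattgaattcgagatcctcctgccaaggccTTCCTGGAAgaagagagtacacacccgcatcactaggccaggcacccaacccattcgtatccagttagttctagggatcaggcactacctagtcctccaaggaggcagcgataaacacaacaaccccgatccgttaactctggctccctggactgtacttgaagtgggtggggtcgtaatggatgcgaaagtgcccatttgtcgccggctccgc
Stat2: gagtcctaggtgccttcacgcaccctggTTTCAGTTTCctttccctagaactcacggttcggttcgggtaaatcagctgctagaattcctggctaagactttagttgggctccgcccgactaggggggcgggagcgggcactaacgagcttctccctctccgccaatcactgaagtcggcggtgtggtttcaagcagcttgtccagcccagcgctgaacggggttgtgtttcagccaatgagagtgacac

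RefSeq promoter windows matched 9 of the 10 genes. In these 250 bases TTCNNNGAA stood in Ifnar2 (-214 to -206, counted back from the start) and in Socs3 (-154 to -146). Socs1 held GAAANNGAAA at 2 overlapping places, from -83 to -74 and from -77 to -68. No match to either pattern was found in the windows of Ifnar1, Ifngr1, Ifngr2, Jak1, Jak2 and Tyk2. Over all 32851 promoter windows of the same length, 7.02% held TTCNNNGAA and 2.98% held GAAANNGAAA. A match describes letters and does not show that a factor binds there.

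The comparison asked whether the receptor, kinase and inhibitor transcripts differed between resistant and control cells. Of the 10 genes 0 passed the test (limma, Benjamini-Hochberg adjusted p under 0.05 over 14238 genes). Of all tested genes 10.1% passed: 5.32% rose and 4.73% fell. Among 10 genes, 0 is close to that share and does not show that they were unchanged. Their 95% intervals reached down to -0.80 for Socs1, -0.68 for Ifngr1 and -0.65 for Jak2. At an unadjusted p under 0.05 there were 2, Ifngr1 and Jak2, against 26.4% of tested genes, and limma voom on reads recovered from the table also passed 0. The resistant pair lay wholly below the control pair for 6 of the 10 genes, namely all 4 receptors, Jak1 and Jak2, against 28.3% of tested genes, and for none did they lie above. The median log2 fold change (resistant minus control) was -0.18 over the 10 genes, -0.20 over the 4 receptors, -0.20 over the 3 kinases and -0.11 over the 3 inhibitors, beside 0.00 over all tested genes. In bulk RNA, fewer cells that express a gene and less of its RNA per cell cannot be told apart.

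**Figure D1:**
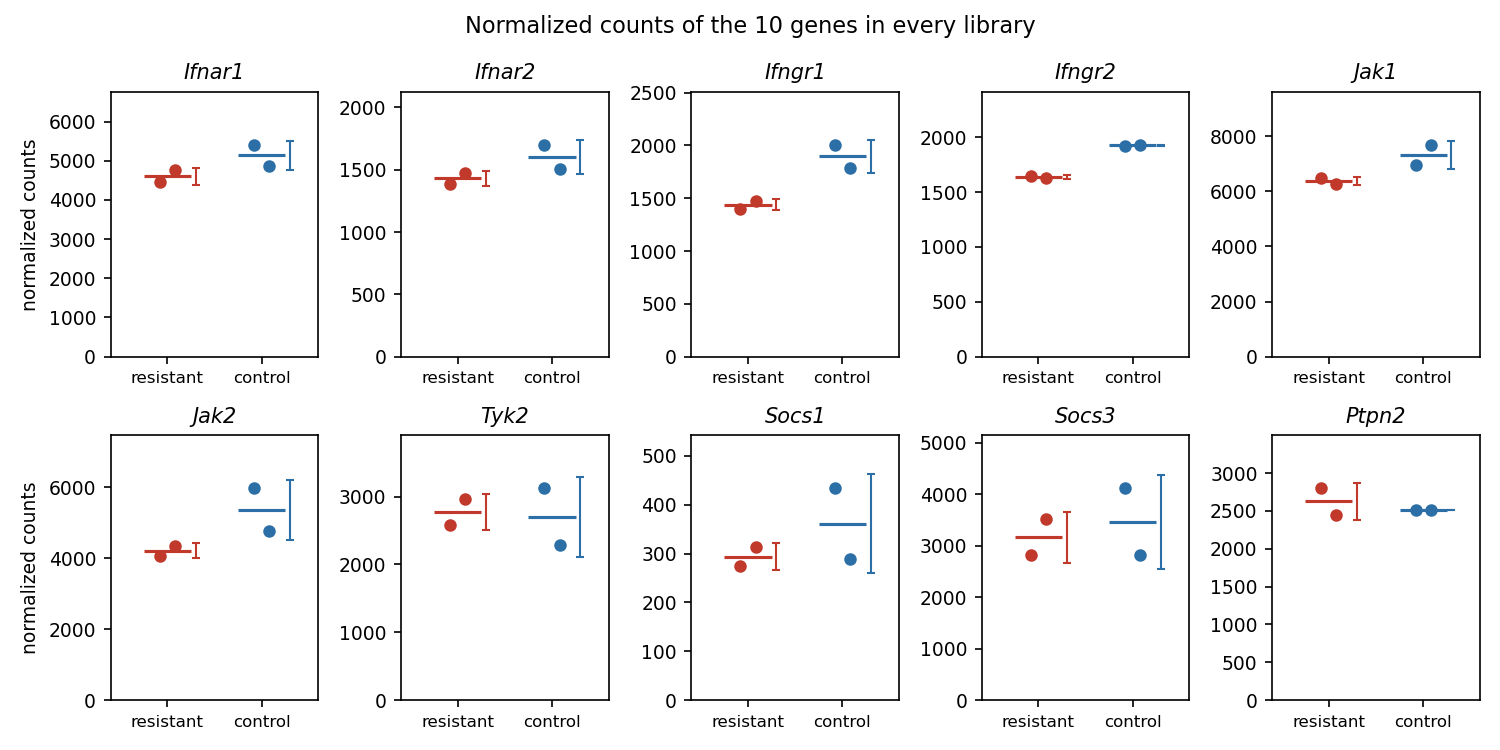
Normalized counts of the 10 genes (vertical axes, from 0) in the 2 resistant libraries (red) and the 2 control libraries (blue), with horizontal lines at group means and bars of 1 SD. The groups separate for the 4 receptors, Jak1 and Jak2 and overlap for Tyk2, Socs1, Socs3 and Ptpn2.

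The type I interferon receptor chains had slightly lower means in resistant cells, and neither passed the test. Ifnar1 (ENSMUSG00000022967.13, chromosome 16, 91485238 to 91507441, plus strand, GRCm38) had 4447 and 4753 normalized counts in resistant libraries, against 5403 and 4872 in control libraries. Its groups did not overlap, but the lower control lay only a little above the higher resistant library. Ifnar1 averaged 4599.95 ± 216 in resistant and 5137 ± 375 in control cells (SD, n = 2 each). The log2 fold change, given with its SE throughout, was -0.16 ± 0.11 (adjusted p = 0.404). The 95% interval, -0.41 to 0.10, corresponds to folds of 0.751 to 1.07. Ifnar2, the signalling chain that binds interferon most tightly (ENSMUSG00000022971.18, chromosome 16, 91372783 to 91405589, plus strand), had 1386 and 1475 normalized counts in resistant libraries, against 1699 and 1505 in control libraries. It too had 1 control just above the resistant pair. Its means were 1430.4 ± 62.8 in resistant and 1602 ± 138 in control cells, giving a log2 fold change of -0.16 ± 0.12 (adjusted p = 0.456, interval -0.45 to 0.13).

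Ifnar1 and Ifnar2 kept nearly 1 ratio to each other. Per kilobase of exon, Ifnar1 stood at 1.80 and 1.81 times the level of Ifnar2 in resistant libraries, against 1.78 and 1.81 times in control libraries. Gene-level counts do not separate the soluble and membrane forms of Ifnar2. Exons of Ifnar2 share 315 bases, 9.46% of its exon length, with the readthrough gene Gm21970 on the same strand, which had 0 normalized counts in every library.

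Of the interferon gamma receptor, the ligand-binding chain Ifngr1 had the smallest p of the 10 genes. Ifngr1 (ENSMUSG00000020009.13, chromosome 10, 19591949 to 19610229, plus strand) had 1400.2 and 1473 normalized counts in resistant libraries, against 2004 and 1787 in control libraries. Both controls stood clear of both resistant libraries. Ifngr1 averaged 1436 ± 51.2 in resistant and 1896 ± 153 in control cells, giving a log2 fold change of -0.40 ± 0.12 (adjusted p = 0.0839, unadjusted p = 0.0119), or a fold of 0.759 with an interval of 0.624 to 0.922. A change at least as large was seen in 28.7% of tested genes. For Ifngr1, leaving out control replicate 2 gave -0.48, and leaving out control replicate 1 gave -0.32.

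Ifngr2, the second chain, which brings in Jak2 (ENSMUSG00000022965.8, chromosome 16, 91547072 to 91565623, plus strand), had 1649.9 and 1625 normalized counts in resistant libraries, against 1923 and 1929 in control libraries. These were the closest replicates among the receptors in both groups. Its means were 1637 ± 17.6 in resistant and 1926 ± 4.37 in control cells, giving a log2 fold change of -0.23 ± 0.11 (adjusted p = 0.226, interval -0.49 to 0.02). Per kilobase of exon, Ifngr1 stood at 1.12 and 1.20 times the level of Ifngr2 in resistant libraries, against 1.38 and 1.23 times in control libraries. That ratio was lower in both resistant libraries, by a margin that is small beside the gap between the controls.

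Jak1, the kinase that both receptors share (ENSMUSG00000028530.14, chromosome 4, 101152367 to 101265282, minus strand), had 6482 and 6271 normalized counts in resistant libraries, against 6968 and 7680.2 in control libraries. It was the most abundant of the 10 in normalized counts, and its groups did not overlap. Its means were 6377 ± 149 in resistant and 7324 ± 503 in control cells, giving a log2 fold change of -0.20 ± 0.11 (adjusted p = 0.279, interval -0.44 to 0.05).

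Jak2, the kinase of the interferon gamma receptor and of many hematopoietic cytokine receptors (ENSMUSG00000024789.13, chromosome 19, 29251828 to 29313080, plus strand), had 4057 and 4356 normalized counts in resistant libraries, against 5964 and 4752 in control libraries. Control replicate 1 stood well above the other 3 libraries. Jak2 averaged 4206 ± 211 in resistant and 5358 ± 857 in control cells, giving a log2 fold change of -0.34 ± 0.13 (adjusted p = 0.155, unadjusted p = 0.0351), with an interval of -0.65 to -0.03. Leaving out control replicate 1 gave -0.18. Leaving out control replicate 2 gave -0.50.

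Tyk2, the kinase bound to Ifnar1 (ENSMUSG00000032175.11, chromosome 9, 21104068 to 21131243, minus strand), had 2582 and 2966 normalized counts in resistant libraries, against 3121 and 2283 in control libraries. The controls enclosed the resistant libraries. Its means were 2774 ± 271 in resistant and 2702 ± 592 in control cells, giving a log2 fold change of 0.05 ± 0.16 (adjusted p = 0.877, interval -0.33 to 0.43). Without control replicate 2 the value was -0.17, and without resistant replicate 2 it was -0.05. Exons of Tyk2 share 554 bases, 8.07% of its exon length, with the antisense gene 1700084C06Rik. That gene had 9.08 to 21.5 normalized counts. Strand use in counting was not given in the sources used here, so reads of both cannot be told apart.

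Socs1, which blocks Jak kinases at their catalytic site (ENSMUSG00000038037.5, chromosome 16, 10782240 to 10785536, minus strand), was the least abundant of the 10. It had 274 and 313 normalized counts in resistant libraries, against 433 and 289 in control libraries. Control replicate 1 was high, and control replicate 2 lay between the resistant libraries. Socs1 averaged 294 ± 27.6 in resistant and 361 ± 102 in control cells, giving a log2 fold change of -0.27 ± 0.23 (adjusted p = 0.494). This was the widest interval of the 10 genes, -0.80 to 0.26. Its counting error alone, at most 6.10% of a library's value, was small beside that interval. Leaving out control replicate 1 gave 0.018. Leaving out control replicate 2 gave -0.56.

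Socs3, the inhibitor best known for limiting IL-6 family signalling through Stat3 (ENSMUSG00000053113.3, chromosome 11, 117966079 to 117970047, minus strand), had 2816 and 3509.5 normalized counts in resistant libraries, against 4111 and 2814 in control libraries. Replicates differed widely in both groups, and the groups overlapped. Its means were 3163 ± 491 in resistant and 3462 ± 917 in control cells, giving a log2 fold change of -0.11 ± 0.19 (adjusted p = 0.754, interval -0.56 to 0.33). Leaving out control replicate 1 gave 0.16, and leaving out resistant replicate 1 gave 0.05. Leaving out control replicate 2 gave -0.39.

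Socs3 is also an early response gene that tissue handling can induce, so genes induced by digestion were read beside it. Beside 5.32% of all tested genes that rose and 4.73% that fell, 1 rose and 2 fell among the 12 tested of 13 such genes. Their summed normalized counts were 27711 and 30301 in resistant libraries, against 30933 and 27625 in control libraries. Egr1 fell (-2.56 ± 0.27, adjusted p = 0.00185), Zfp36 fell (-0.58 ± 0.13, adjusted p = 0.0353) and Atf3 rose (0.83 ± 0.16, adjusted p = 0.0209). The Zfp36 call ended without either resistant library and with the replicate number as a block (adjusted p = 0.0537), and the Atf3 call without resistant replicate 1. In 8 of the 12 genes control replicate 1 lay above control replicate 2, as for Socs3 and for 53.1% of all tested genes. The part of the digestion genes in the Socs3 values was not tested.

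Ptpn2, the phosphatase also called TC-PTP (ENSMUSG00000024539.17, chromosome 18, 67665511 to 67724595, minus strand), had 2796 and 2452 normalized counts in resistant libraries, against 2516 and 2509 in control libraries. The controls were nearly equal and lay between the resistant libraries. Its means were 2624 ± 244 in resistant and 2513 ± 4.67 in control cells, giving a log2 fold change of 0.06 ± 0.12 (adjusted p = 0.789, interval -0.21 to 0.33). Without resistant replicate 1 the value was -0.035.

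**Figure D2:**
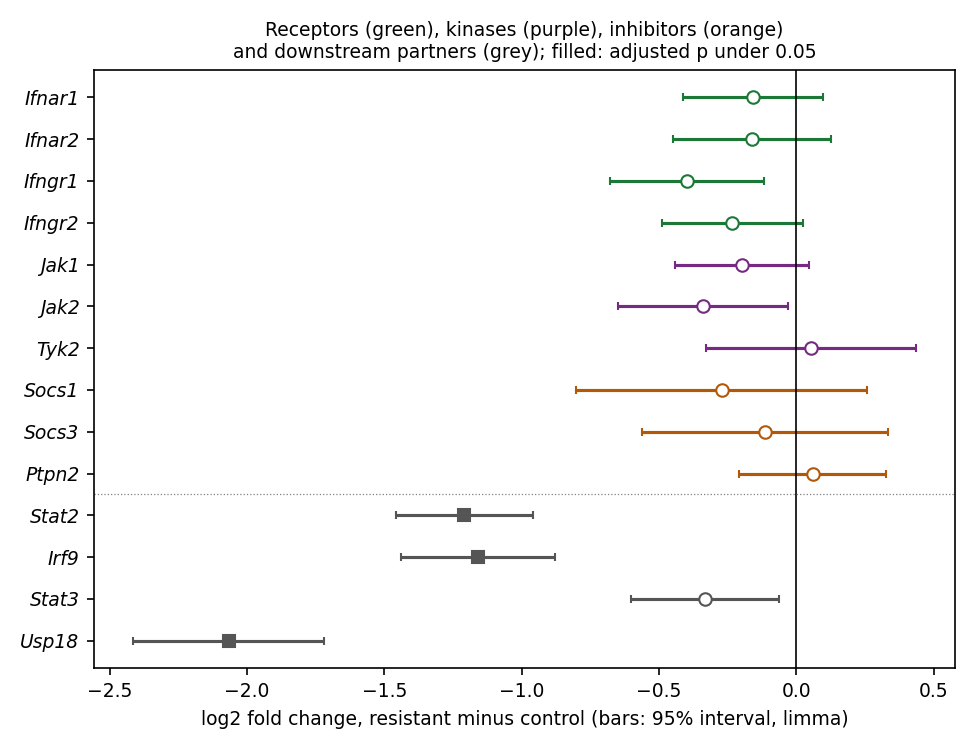
Log2 fold change, resistant minus control (horizontal axis), with 95% intervals from limma for the 10 genes and 4 partners (Stat2, Irf9, Stat3, Usp18). The 10 genes lie between -0.40 and 0.06 with open symbols (not passed), and the filled squares of Stat2, Irf9 and Usp18 lie between -2.07 and -1.16.

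The gap between the 2 control libraries was large for the inhibitors Socs1 and Socs3 and for Tyk2. On the log2 scale, control replicate 1 exceeded control replicate 2 by 0.58 for Socs1, 0.55 for Socs3, 0.45 for Tyk2 and 0.33 for Jak2. Gaps as large were found in 14.2%, 16.0%, 22.1% and 34.0% of tested genes, in that order of genes. Ptpn2 and Ifngr2 had control gaps of 0.00 each, smaller than those of 98.8% and 98.5% of tested genes.

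The resistant pair mostly deviated the other way. Control replicate 1 was the higher control in 8 of 10 genes, against 53.1% of tested genes, and resistant replicate 1 was the higher resistant library in 3 of 10, against 45.8%. The 2 gaps had opposite signs in 9 of the 10 genes, as they had in 68.0% of tested genes. The control gap exceeded the group difference in 4 genes, and in 47.8% of tested genes. All 7 carcinoma epithelium markers were also higher in control replicate 1 than in control replicate 2. Their summed normalized counts were 47810 and 55642 in resistant libraries, against 66636 and 43124 in control libraries, and their part in these gaps was not tested.

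**Figure D3:**
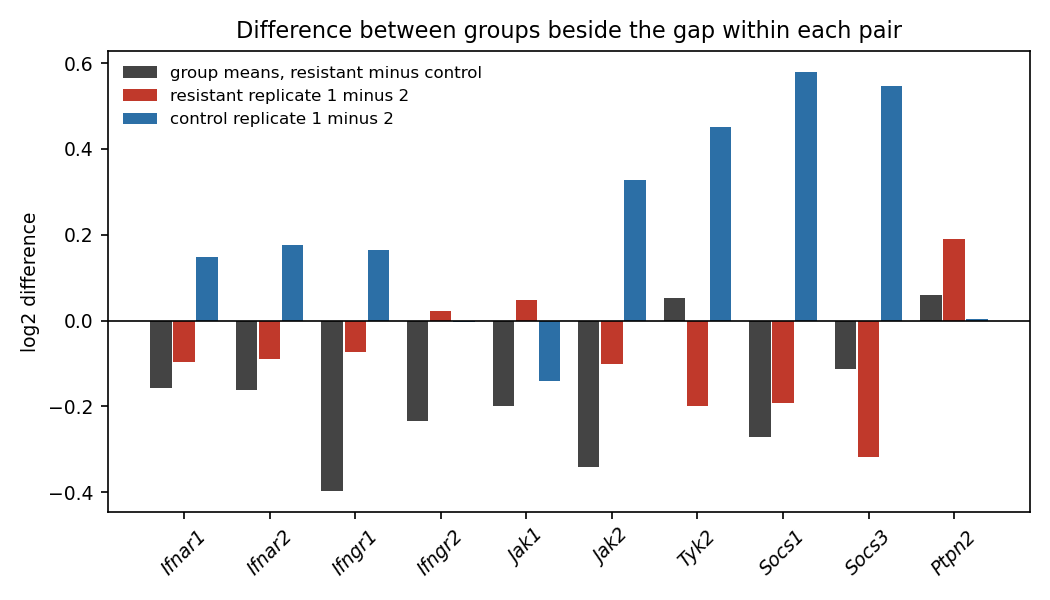
Log2 differences for the 10 genes: group means, resistant minus control (grey), resistant replicate 1 minus 2 (red) and control replicate 1 minus 2 (blue). For Tyk2, Socs1 and Socs3 the blue bars, 0.45 to 0.58, are longer than the grey bars, -0.27 to 0.05.

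Levels can be compared between genes once divided by exon length, here the union of annotated exons. In the mean of 4 libraries Socs3 stood highest, at 1146 normalized counts per kilobase, followed by Jak2 (951), Jak1 (948), Ptpn2 (822) and Ifnar1 (820). Below them came Ifngr1 (585), Ifngr2 (473), Ifnar2 (455), Tyk2 (399) and Socs1 (113). Neighbours in this order overlapped in their range over 4 libraries except at 2 places: Ifnar1 (749 to 910) lay above Ifngr1 (492 to 704), and Tyk2 (333 to 455) lay above Socs1 (94.3 to 149). Among tested genes, Socs3 exceeded 84.2%, Jak1 exceeded 80.8% and Socs1 exceeded 33.5% on this scale. Socs3 was 10.3 and 11.3 times the level of Socs1 per kilobase in resistant libraries, against 9.54 and 9.78 times in control libraries. Both were highest in control replicate 1 and next highest in resistant replicate 2.

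**Figure D4:**
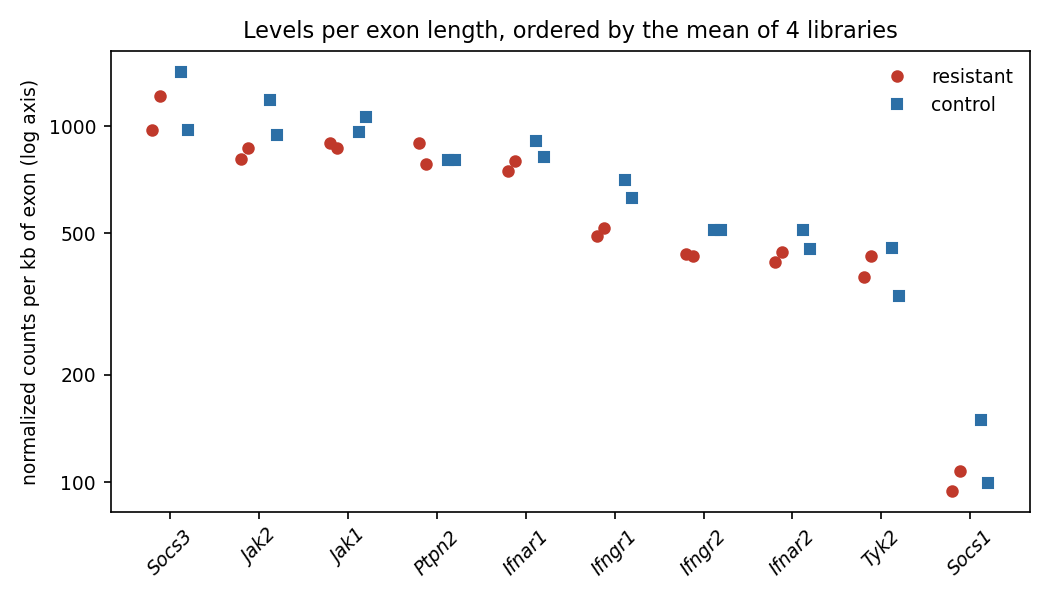
Normalized counts per kilobase of exon (vertical log axis) in the 2 resistant (red circles) and 2 control (blue squares) libraries, genes ordered by their mean. Socs3 averages 1146 and Socs1 113, with the 4 receptors between 455 and 820.

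Ifnar2, Ifnar1 and Ifngr2 lie in 1 gene cluster on chromosome 16 together with Il10rb, the chain shared by the receptors for IL-10 and type III interferon. Il10rb had 590 and 597 normalized counts in resistant libraries, against 745 and 606 in control libraries, a log2 fold change of -0.18 ± 0.16 (adjusted p = 0.518). All 4 receptor genes of the cluster thus had values between -0.23 and -0.16. The tested genes that start within 5 Mb of Ifnar1, 55 in number and including the other genes of the cluster, had a median of -0.16. Of these 1 rose and 7 fell, against 5.32% and 4.73% of all tested genes. That median is the value of Ifnar2 itself, so it cannot show whether the cluster stood apart from its surroundings.

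Around Jak2 the median of 43 neighbours was -0.24, beside -0.34 for Jak2 itself, and around Jak1 the median of 29 neighbours was -0.12, beside -0.20. Ifngr1 had -0.40 where 41 neighbours had a median of -0.03. Around Tyk2 and Ptpn2, the 2 genes with positive values, 76 and 44 neighbours had medians of 0.17 and 0.14. Socs1 (-0.27) and Socs3 (-0.11) had neighbours with medians of -0.11 over 42 genes and -0.02 over 161.

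For Ifngr1 and Jak2, the 2 genes with the smallest p, the most similar profiles were found by the root mean square difference between log2 values centred on their own mean, over 4 libraries. Closest to Ifngr1 were Pygo2 (0.0101), Fis1 (0.0127) and Zcchc2 (0.0132). Closest to Jak2 were Sod1 (0.0075), Mfsd6 (0.013) and Ube2q1 (0.0146). Because they were chosen for like values, their log2 fold changes, -0.42 to -0.33, lie close to those of the 2 genes by that choice.

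Downstream of the receptors, transcripts of Stat2 and Irf9 fell in resistant cells. Stat2, with its promoter match at -222 to -213, had 1709 and 1693 normalized counts in resistant libraries, against 3801 and 4071 in control libraries (log2 fold change -1.21 ± 0.11, adjusted p = 0.000936). Irf9 had 2296 and 2716 in resistant libraries, against 5428 and 5729 in control libraries (-1.16 ± 0.12, adjusted p = 0.00163), and neither pattern was found in its 2 promoter windows. The groups stood far apart for both, and the upper ends of their intervals, -0.96 and -0.88, lay below the lower end of every interval among the 10 genes, -0.80 for Socs1. The difference between these changes and those of the 10 genes was not tested. Stat2 and Irf9 are partners that passed. The intervals of the partners Stat3 (-0.60 to -0.06) and Il10rb (-0.54 to 0.19), which did not pass, overlapped those of the 10 genes.

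Stat3, the partner of Socs3, had 6387 and 7140.3 normalized counts in resistant libraries, against 9028 and 8008 in control libraries, and did not pass (-0.33 ± 0.12, adjusted p = 0.117). Jak3, the fourth kinase of the family, had -0.10 (adjusted p = 0.841).

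Among the other inhibitors of cytokine signalling, Usp18 was the 1 gene of 17 that fell, beside 4.73% of all tested genes, and none rose. Usp18, an isopeptidase that binds Ifnar2 and dampens its signalling, had 914 and 1093 normalized counts in resistant libraries, against 4663 and 3767 in control libraries (-2.07 ± 0.15, adjusted p = 0.000531). Both control libraries were several times above both resistant libraries. The remaining 16, among them Cish, Socs2 and Socs4 to Socs7, the Pias proteins and the phosphatases Ptpn1, Ptpn6 and Ptpn11, did not pass, and the list's median was 0.01. Ptpn11 lay near the threshold (-0.37, adjusted p = 0.0608). The number that passed was 2 when scaled to total reads or library medians and with voom, and 6 with crossed pairing. It stayed at 1 under the other pseudocounts and filters.

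Of the 5 subunits of the ubiquitin ligase that binds the SOCS box, Elob rose (0.43 ± 0.10, adjusted p = 0.0443), with 3229 and 3196 normalized counts in resistant libraries, against 2341 and 2444 in control libraries. The call ended under 9 of 16 alternatives, among them leaving out either resistant library, the replicate block (adjusted p = 0.147) and scaling to total reads (log2 fold change 0.39). Of 7 genes linked to the turnover of Ifnar1, the protein kinase Prkd2 fell (-0.83 ± 0.14, adjusted p = 0.0134), with 943 and 924 in resistant libraries, against 1494 and 1853 in control libraries. That call ended without either resistant library. Medians of these lists were 0.35 and -0.11.

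Transcripts of the interferons themselves were at or near 0 reads. None of 20 interferon genes reached the filter, and 13 had no read in any library. Named after their values were seen, Ifnb1 had 5 and 1 reads in resistant libraries, against 10 and 8 in control libraries. Per total reads this is a resistant to control ratio of 0.345 (95% exact interval 0.112 to 0.906, counting error only). Ifng had 6 and 0 reads in resistant libraries, against 0 and 0 in control libraries, all from resistant replicate 1. Ifne had 3 and 3 reads in resistant libraries, against 0 and 0 in control libraries. For Ifng and Ifne the same exact interval had a lower end of 1.22 and no upper end. Both thus lay above 1, while the interval of Ifnb1 lay below 1.

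Other receptors that signal through Jak kinases changed in both directions. Of 37 such genes 20 were tested, 3 rose and 2 fell, against 5.32% and 4.73% of all tested genes. The median of the list was -0.05. The beta common chain Csf2rb rose (3.18 ± 0.23, adjusted p = 0.000486), with 704 and 917 normalized counts in resistant libraries, against 102 and 75.6 in control libraries. It has a close paralog, Csf2rb2, so reads can be split between them. Il12rb1 (0.91 ± 0.14, adjusted p = 0.00895) and Il2rb (1.02 ± 0.17, adjusted p = 0.0134) rose, and both calls ended without either resistant library.

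At low levels, Il3ra fell (-1.98 ± 0.27, adjusted p = 0.00598), with 27.5 and 26.8 normalized counts in resistant libraries, against 101 and 120.02 in control libraries. Ifnlr1, the specific chain of the type III interferon receptor, was named after its values were seen. It fell (-1.25 ± 0.28, adjusted p = 0.0349), with 31.6 and 32.2 in resistant libraries, against 85.5 and 69.6 in control libraries. The Ifnlr1 call ended without either resistant library and with the replicate number as a block.

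Around Socs3, ligands of the IL-6 family and targets of Stat3 were mixed. Of 8 ligands 4 were tested, and Clcf1 fell (-0.64 ± 0.13, adjusted p = 0.0217), with 1571 and 1542 normalized counts in resistant libraries, against 2639.8 and 2229.9 in control libraries. Of 15 Stat3 targets 14 were tested, 1 rose and 1 fell, against 5.32% and 4.73% of all tested genes. The median of the targets was -0.11, as for Socs3 itself. The acute phase gene Hp rose (1.85 ± 0.42, adjusted p = 0.0351) at 57.1 and 30.03 in resistant libraries, against 11.5 and 10.1 in control libraries. The transcription factor gene Cebpd fell (-1.21 ± 0.29, adjusted p = 0.0406), with 88.7 and 75.1 in resistant libraries, against 244 and 147 in control libraries. The calls of Clcf1, Hp and Cebpd ended without either resistant library.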

How the data were processed

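Bulk RNA was sequenced in 2 libraries labelled resistant and 2 labelled control, grouped by their source labels and matched to columns by title. The deposited values are on a log2 scale: the authors scaled each library's counts by its own size factor and added 1 before taking the log, with STAR and DESeq2 on mm10 per the submitters' processing notes. Versions and settings were not given in the sources used here. The scale was read from the values: at a tolerance of 0.01 reads, 100% of them were whole multiples of 1 step per library. Symbols (55144 of 55385) and GRCm38 coordinates came from GENCODE M21, with versions removed from the identifiers. Promoter sequences came from RefSeq.

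The 14238 genes whose mean normalized count reached 10 were fitted with limma 3.58.1 (R 4.3.3; trend, no block) on the deposited values, whose pseudocount of 1 understates changes of low genes. P-values were adjusted over all tested genes by Benjamini-Hochberg. With 2 libraries per group an exact permutation test cannot go below p = 0.333, so none is given. In simulated reads for 14238 genes, the fit called 46% of 50 genes changed 1.5-fold and 80% of 50 changed 2-fold. It also called 16 of 14038 unchanged genes. The simulation gave every gene and both groups the same relative spread. In the data the control pair was noisier than the resistant pair (chi-square per degree of freedom 66.3 and 20.5), so these shares may not hold here.

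The members and the 9 pathway lists were chosen with earlier results of these data known. Named genes were all members, direct partners, and up to 4 genes of each list with the smallest p among those that passed. Libraries with a shared replicate number were not treated as pairs, and whether they shared handling is not known. Alternatives are listed with their effect in the closing section. No set test was run. Some genes of these lists are not reported here.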

Additional observations from a re-analysis of the deposited data

How the results depend on the processing

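The 10 genes stayed short of the threshold under other pseudocounts, filters, scalings, moderation, voom and the block for the replicate number. Leaving out 1 library, the number that passed ranged from 0 to 4, the 4 being Ifngr1, Jak2, Socs1 and Socs3 without control replicate 2. The spread then came from the resistant pair alone. Over these fits the log2 fold change ranged from -0.17 to 0.28 for Tyk2, -0.56 to 0.018 for Socs1, -0.39 to 0.16 for Socs3 and -0.035 to 0.15 for Ptpn2, which all changed sign. The other 6 genes kept a negative value in all alternatives. Of all tested genes 1432 passed, against 946 with a mean of at least 1, 311 with no filter, 623 without a trend and 414 to 4067 with 1 library left out. The cause was not tested. Scaling to total reads moved the split to 657 that rose and 799 that fell (758 and 674 as deposited), and the median of all genes by -0.04. Among the other genes named as changed, Stat2, Irf9, Usp18, Csf2rb, Il3ra, Egr1, Krt19 and Dcn passed under all 16 alternatives. With no filter the others lost their call, and without at least 1 of the resistant libraries all of those but Des did. Without a trend the calls of Il2rb, Elob, Prkd2, Clcf1, Cebpd, Hp, Atf3, Zfp36, Cd68 and Pdgfrb ended. With the filter at a mean of at least 1, those of Ifnlr1, Elob, Cebpd, Hp, Zfp36 and Cd68 ended. With the replicate number as a block 1213 genes passed and 0 of the 10, and the calls of Ifnlr1, Elob and Zfp36 ended. The deviations of same-numbered libraries correlated at -0.36, so their values gave no sign of pairing. This correlation cannot show whether they shared handling or a batch. Crossed pairing, added after seeing the data, passed 4584 genes and 2 of the 10. The 10 genes had 269 or more reads per library, while 13 of 20 interferon genes had none.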
